A study of Mus musculus with 5 samples.

Results

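The cells described here are a small set of connective tissue cells of the embryonic mouse limb in which at least 3 of the genes *Nppc*, *Adarb2*, *Cxcl9*, *Tcf15*, *Ebf2* and *Gpr83* were detected. A barcode was selected when at least 1 UMI (unique molecular identifier, 1 counted RNA molecule) was present for that number of these 6 genes and none for *Cdh1* (epithelium), *Cdh5* (endothelium) or *Myod1* (muscle). It also had to pass the limits on kept cells, which were 100 to 9000 detected genes and at most 10% mitochondrial UMIs. By this rule 1528 of 49801 kept limb cells were selected, 765 of 25865 in the forelimb and 763 of 23936 in the hindlimb. They made up 2.96% of kept forelimb cells (95% exact binomial interval 2.75 to 3.17) and 3.19% of kept hindlimb cells (2.97 to 3.42). The values that chose these cells were the UMIs of the 9 genes named, so levels of those genes are given as a description and were not tested.

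The study compared the developing penis bone with limb bones, and collected single-cell RNA-seq from P6 mouse penis (3 libraries) and from the forelimbs and hindlimbs of male embryos at embryonic day 15 by the labels (1 library per limb). All libraries carry the genotype label C57BL/6N, while the study's methods give C57BL/6J, and no transgene or treatment is named. The labels do not say how many embryos went into each limb library. With 1 library per limb, differences between limbs could not be tested. Selected and other cells were compared within each library, and that comparison was not tested because the cells were chosen by their own counts. Every interval covers counting error only.

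C-type natriuretic peptide, the product of *Nppc*, is a secreted ligand that acts through the guanylyl cyclase receptor *Npr2* and is known for promoting growth of cartilage templates. *Tcf15* (paraxis) is a basic helix-loop-helix factor best known from the somites, and *Ebf2* is a zinc finger factor of mesenchymal and fat precursors. *Cxcl9* is an interferon-inducible chemokine whose receptor is *Cxcr3*. *Adarb2* belongs to the adenosine deaminase family that edits RNA, and *Gpr83* encodes a G protein-coupled receptor. Limb connective tissue at this age holds precursors of dermis, tendon, joint, muscle connective tissue and fat, which share collagen and *Prrx1* expression and differ in the factors and ligands they make.

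The selected cells were compared with the 27792 other kept limb cells that had a UMI of *Prrx1* or *Pdgfra*, called other connective tissue cells here (14225 forelimb and 13567 hindlimb cells). The selected cells held 8490580 and 9004280 UMIs in the forelimb and hindlimb, with a median of 8733 and 9330 UMIs per cell. Other connective tissue cells were shallower, at medians of 5439 and 6036 UMIs, so detection of several genes was easier in the selected cells. When every cell was thinned to 2000 UMIs, 0.484% of forelimb and 0.547% of hindlimb cells met the rule. Doublet calls marked 4.31% of selected forelimb cells and 1.97% of selected hindlimb cells, against 3.09% and 1.75% of other connective tissue cells. The limb libraries shared 203 barcodes, and no barcode was selected in both.

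Of the 6 genes, *Ebf2* was the most widely detected, in 97.5% of selected forelimb and 97.1% of selected hindlimb cells, and in 32.8% and 31.4% of other connective tissue cells. *Adarb2* was detected in 74.6% and 71.7% of selected cells against 9.45% and 11.5% of the others. *Nppc* was detected in 60.3% and 67.5% against 8.06% and 8.13%. These 3 genes were each present in most selected cells of both limbs. *Tcf15* was found in 46.9% and 35.9% of selected cells against 2.93% and 2.52% of the others, and *Gpr83* in 36.99% and 26.2% against 3.01% and 1.26%. *Cxcl9* was the least even between limbs, in 11.6% of selected forelimb cells and 41.4% of selected hindlimb cells, against 0.759% and 1.53% of other cells. Free RNA gives UMIs in cells that do not make a gene, so the same shares were taken in cells with 3 or more of 5 white blood cell markers (1287 and 1133 cells, medians of 7169 and 8151 UMIs). There *Nppc* was detected in 3.73% and 2.21%, *Tcf15* in 1.79% and 1.68%, and *Ebf2* in 7.69% and 6.18% of cells. The share of *Tcf15* in other connective tissue cells lay little above this level, and those of *Nppc* and *Ebf2* lay further above it. Doublet calls marked 11.4% and 7.86% of the cells with white blood markers, against 3.09% and 1.75% of other connective tissue cells. The part of doublets in the level was not tested.

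**Figure D1:**
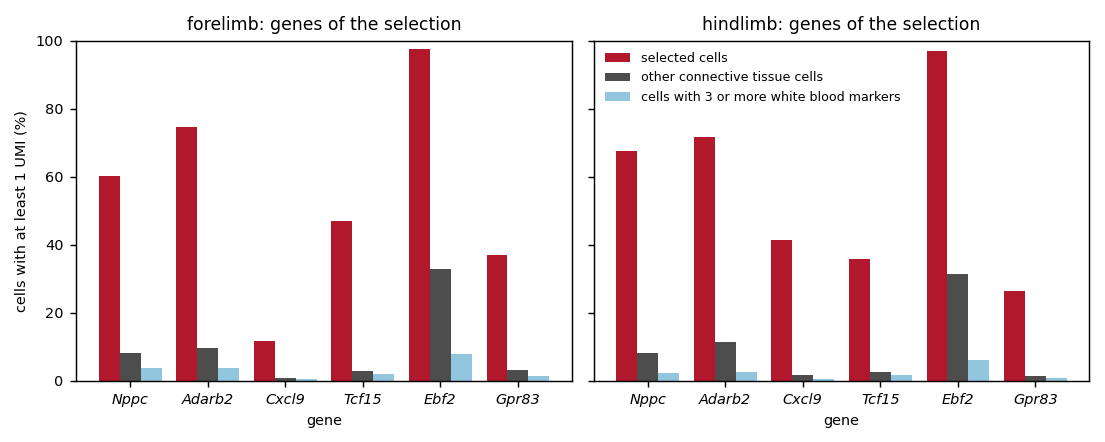
Percent of cells with at least 1 UMI (vertical axis) of each of the 6 genes used for selection, in the forelimb (left) and hindlimb (right), for selected cells, other connective tissue cells and cells with 3 or more white blood markers. The selected cells stand above both other sets by construction; *Cxcl9* was detected in 11.6% of selected forelimb and 41.4% of selected hindlimb cells.

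As levels, *Nppc* stood at 151 CPM (the gene's UMIs per 1000000 UMIs of the summed cells; exact Poisson interval 143 to 159.6) in selected forelimb cells and 161 CPM (153 to 169.5) in selected hindlimb cells, against 18.99 and 18.7 CPM in other connective tissue cells. *Tcf15* stood at 56.2 (51.3 to 61.5) and 40.8 CPM (36.7 to 45.1), against 6.25 and 5.02 CPM. These levels were set by the selection, and neither gene was compared between the limbs. *Cxcl9* stood at 17.7 CPM in selected forelimb cells and 94.2 CPM in selected hindlimb cells, with 1.48 and 3.88 CPM in the others. In the mouse GENCODE annotation of GRCm38 (mm10), *Nppc* lies at chr1:86666291-86670571 on the minus strand and *Tcf15* at chr2:152143561-152149097 on the plus strand, and *Adarb2* spans 566 kb at chr13:8202866-8768747.

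*Nppc* and *Tcf15* were found together in a minority of selected cells. Of 765 selected forelimb cells, 461 had *Nppc*, 359 had *Tcf15*, and 165 (21.6%) had both. In the hindlimb, 515 of 763 had *Nppc*, 274 had *Tcf15*, and 130 (17.0%) had both. A further 110 forelimb and 104 hindlimb cells had neither, and 12 and 20 cells had all of *Nppc*, *Adarb2*, *Cxcl9* and *Tcf15*. The most frequent combination in both limbs was *Nppc*, *Adarb2* and *Ebf2*, in 179 forelimb cells (23.4%) and 152 hindlimb cells (19.9%). The second was *Adarb2*, *Tcf15* and *Ebf2* in the forelimb (122 cells) and *Nppc*, *Cxcl9* and *Ebf2* in the hindlimb (79 cells). Most selected cells held the minimum number of markers: 584 forelimb and 510 hindlimb cells had 3, 149 and 207 had 4, 31 and 41 had 5, and 1 and 5 had all 6.

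The label of connective tissue was checked against 11 markers, of which 9 lay below the other connective tissue cells in both limbs and 1 lay above in both. Their median log2 difference was -0.31. *Twist1*, among the 9, was called lower by the limit given below, beside 0.819% of all genes compared. A UMI of *Prrx1* or *Pdgfra* was present in 91.4% of selected forelimb and 91.7% of selected hindlimb cells. *Col3a1*, a fibrillar collagen, was at 3619.7 against 3753 CPM (forelimb) and 3743 against 3499 CPM (hindlimb), in each case for selected against other cells. *Pdgfra*, a receptor of mesenchymal cells, was at 206 against 194 CPM (forelimb) and 223 against 189 CPM (hindlimb). *Prrx1*, a homeobox factor of limb mesenchyme, was lower in selected cells, at 191 against 359.9 CPM (forelimb) and 177 against 373 CPM (hindlimb). The comparison cells, unlike the selected cells, were chosen in part for having *Prrx1*, which favours this difference. *Twist1*, a factor of undifferentiated mesenchyme, was lower still, with log2 differences of -1.08 (forelimb) and -1.19 (hindlimb). The connective tissue list summed to 11432 and 11109.9 CPM in selected cells and 14287 and 13182 CPM in the others.

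Genes outside the rule were then compared between selected and other connective tissue cells within each limb. A gene was called when log2((CPM + 5)/(CPM + 5)) was at least 1, or at most -1, in both limbs. Of 9522 genes with a mean of at least 10 CPM, 39 (0.41%) were called higher and 78 (0.819%) lower in the selected cells. Within a single limb the counts were 49 higher and 137 lower in the forelimb and 69 higher and 149 lower in the hindlimb, and no gene was called in opposite directions. Because these same cells were chosen by their counts, the calls are a description. Counts of listed genes that lay above or below in both limbs are given without the share over all genes compared. They too are a description. Against other cells within the interquartile range of depth of the selected cells, 22 genes were called higher, 21 of them among the 39, and 62 lower. The rest of the 39 were not called in that setting, so a gene named below as called higher need not pass it.

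**Figure D2:**
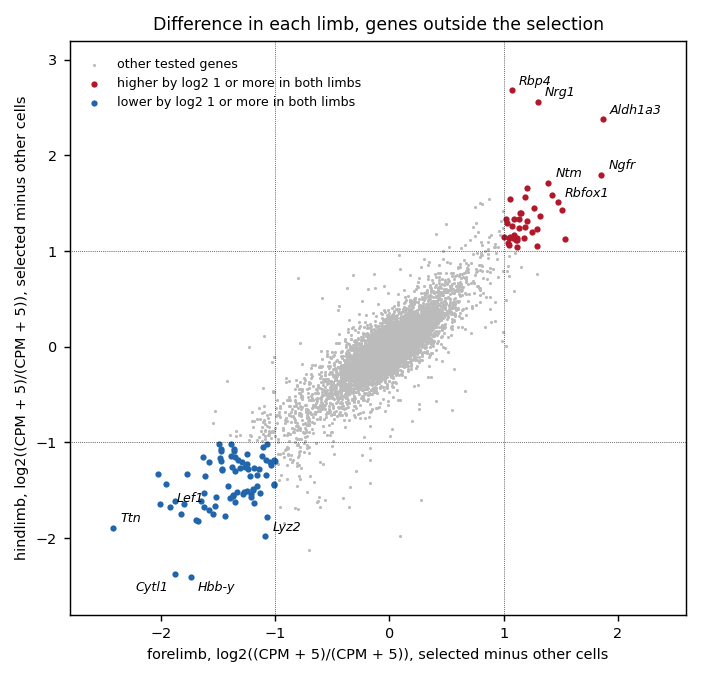
Log2 difference between selected and other connective tissue cells in the forelimb (horizontal axis) and hindlimb (vertical axis), 5 CPM added, for the 9522 genes compared outside the rule. Red points are the 39 genes called higher and blue points the 78 called lower in both limbs; *Aldh1a3* lies at 1.87 and 2.38 and *Ttn* at -2.42 and -1.89.

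The retinoic acid pathway held the gene with the largest mean difference over both limbs. *Aldh1a3*, a retinaldehyde dehydrogenase that makes retinoic acid and lies at chr7:66390890-66427517, was at 63.8 CPM (58.6 to 69.4) in selected forelimb cells and 74.2 CPM (68.7 to 80.03) in selected hindlimb cells. Other connective tissue cells had 13.8 (13.1 to 14.6) and 10.2 CPM (9.63 to 10.9). The log2 differences were 1.87 (forelimb) and 2.38 (hindlimb). *Aldh1a3* was named for having the largest mean difference, so the gap between these intervals is a description and was not tested. *Rbp4*, the carrier of retinol, was at 89.4 CPM in the selected forelimb cells against 39.9 CPM in the other cells, and 231 against 31.7 CPM in the hindlimb. The *Rbp4* difference was therefore much larger in the hindlimb. The related enzyme *Aldh1a2* differed by 0.75 (forelimb) and 1.16 (hindlimb) log2 units and missed the limit in the forelimb. Several genes that bind, degrade or sense retinoic acid had lower values in selected cells, none below the limit in both limbs. *Cyp26b1*, which degrades it, was at 10.2 against 30.7 CPM (forelimb) and 13.4 against 29.97 CPM (hindlimb). *Rarg*, a receptor, was at 22.1 against 50.8 CPM (forelimb) and 25.8 against 54.8 CPM (hindlimb), and *Crabp1*, a cellular binding protein, at 200.1 against 439.6 CPM (forelimb) and 238 against 430.1 CPM (hindlimb). Of 12 pathway genes compared, 2 were called higher and none lower, beside 0.41% and 0.819% of all genes compared, with a median log2 difference of -0.01 beside -0.00 over all genes compared.

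The ligand *Nrg1* and the receptors *Ngfr* and *Cntfr* were among the 15 genes with the largest mean differences. *Nrg1*, an EGF family ligand of ErbB receptors, was at 212 CPM in the selected forelimb cells against 83.4 CPM in the other cells, and 924 against 152 CPM in the hindlimb. Its log2 differences were 1.30 (forelimb) and 2.56 (hindlimb), and it was the 1 gene of the 39 that was still called when the selected cells outside their leading clusters were taken alone. *Ngfr*, the p75 neurotrophin receptor, was at 97.4 CPM in the selected forelimb cells against 23.3 CPM in the other cells, and 77.5 against 18.7 CPM in the hindlimb. *Cntfr*, the receptor subunit that binds ciliary neurotrophic factor, was at 86.4 CPM in the selected forelimb cells against 29.1 CPM in the other cells, and 67.97 against 19.3 CPM in the hindlimb. *Ngfr* and *Cntfr* thus differed by similar amounts in both limbs, at 1.86 (forelimb) and 1.80 (hindlimb) for *Ngfr* and 1.42 (forelimb) and 1.58 (hindlimb) for *Cntfr*. *Sox10*, a defining factor of Schwann cells, which also express *Ngfr*, was at 2.12 against 3.29 CPM (forelimb) and 2.11 against 3.21 CPM (hindlimb).

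*Ntm*, *Rbfox1*, *Rit2*, *Shisa6* and *Gria1*, which are better known from neurons, were also called higher, and were grouped here after their values were seen, while *Cadps*, *Nrgn* and *Ctnna2*, also known from neurons, were called lower. *Ntm* (neurotrimin), a membrane-anchored adhesion molecule, was at 273 CPM in the selected forelimb cells against 101 CPM in the other cells, and 297 against 86.8 CPM in the hindlimb. *Rbfox1*, a splicing factor, was at 69.8 against 21.9 CPM (forelimb) and 88.1 against 27.6 CPM (hindlimb), and *Rit2*, a small GTPase, at 24.7 against 5.44 CPM (forelimb) and 17.3 against 3.28 CPM (hindlimb). *Shisa6* and *Gria1*, an auxiliary and a channel subunit of AMPA receptors, lay above the other cells too, *Shisa6* at 32.4 against 11.4 CPM (forelimb) and 48.2 against 12.9 CPM (hindlimb) and *Gria1* at 21.9 against 7.37 CPM (forelimb) and 25.9 against 10.01 CPM (hindlimb). These genes lay above the other cells in both limbs at low to moderate levels. *Nrg1*, *Ntm* and *Rbfox1* are among the long genes of the genome, spanning 1069, 968 and 1526 kb, and whether intronic reads were counted is not given in the sources used here. Of 27 axon guidance genes compared, none was called higher, and *Sema3d*, *Sema3e* and the semaphorin receptor *Plxna4* were called lower, beside 0.41% higher and 0.819% lower of all genes compared. *Sema3d*, a secreted semaphorin, was at 19.3 against 69.9 CPM (forelimb) and 21.3 against 79.1 CPM (hindlimb). The guidance list's median was -0.39.

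The growth factor *Igf1* and its binding protein *Igfbp3* were called higher as well. *Igf1* was at 638 CPM in the selected forelimb cells against 306 CPM in the other cells, and 534 against 254 CPM in the hindlimb. Against other cells of matched depth quartiles its mean log2 difference was 0.87, under the limit. *Igfbp3* was at 252 CPM in the selected forelimb cells against 102 CPM in the other cells, and 231 against 81.3 CPM in the hindlimb. These were 2 of 12 genes of the insulin-like growth factor pathway, beside 0.41% of all genes compared, and none was called lower. The median log2 difference of the list was 0.22, against -0.00 over all genes. *Igf2* was at 976 against 868 CPM (forelimb) and 796 against 693 CPM (hindlimb), a difference under the limit in both limbs. *Dlk1*, a Delta-like protein that restrains fat cell formation, was at 2511 against 1375 CPM (forelimb) and 2328 against 1085 CPM (hindlimb), and its log2 difference of 0.87 missed the limit in the forelimb while that of 1.10 passed it in the hindlimb.

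*Plat*, *Entpd2*, *Nr3c2*, *Bst2* and *Casp4* were also among the 15. *Plat*, tissue plasminogen activator, was at 80.1 against 32.03 CPM (forelimb) and 84.2 against 23.3 CPM (hindlimb), and *Serpine2*, a secreted inhibitor of that enzyme and of thrombin, was called higher too. *Entpd2*, which hydrolyses extracellular ATP, was at 32.5 against 7.96 CPM (forelimb) and 11.7 against 2.61 CPM (hindlimb). *Nr3c2*, the mineralocorticoid receptor, was at 83.2 against 37.4 CPM (forelimb) and 123 against 38.8 CPM (hindlimb). *Bst2* (tetherin) and *Casp4*, an inflammatory caspase, are both interferon-inducible. *Bst2* was at 82.4 against 30.1 CPM (forelimb) and 55.97 against 18.6 CPM (hindlimb), and *Casp4* at 16.7 against 4.78 CPM (forelimb) and 18.2 against 3.82 CPM (hindlimb). White blood cells had more of both, at 174 and 162 CPM of *Bst2* and 71.5 and 68.7 CPM of *Casp4*. The 5 white blood markers summed to 79.7 and 28.2 CPM in selected cells and 139 and 118 CPM in other cells, and their part in the levels of *Bst2* and *Casp4* was not tested. White blood cells themselves summed to 4584 and 4505 CPM.

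**Figure D3:**
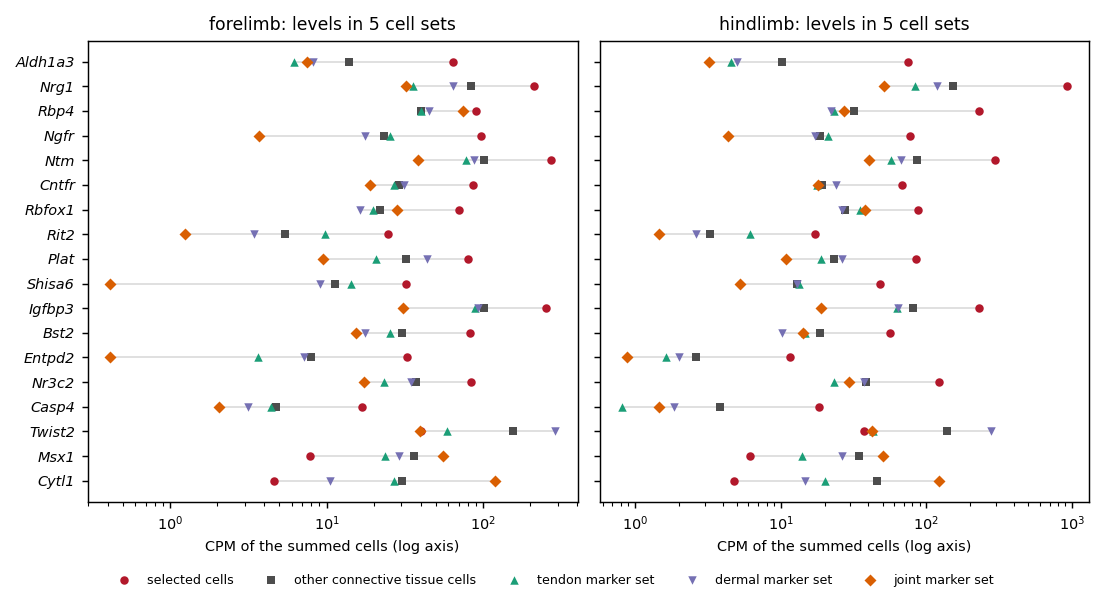
CPM on a log axis (horizontal) of the 15 genes with the largest mean differences and of *Twist2*, *Msx1* and *Cytl1*, in selected cells, other connective tissue cells and the sets with tendon, dermal and joint markers, for the forelimb (left) and hindlimb (right). For *Aldh1a3* the selected cells stand at 63.8 and 74.2 CPM and the other 4 sets at or below 13.8 CPM.

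The selected cells were then set beside cells with markers of tendon (726 and 601 cells in the forelimb and hindlimb), dermis (4046 and 3638) and joint (312 and 454). These sets held no selected cell and no cell with a UMI of *Cdh1*, *Cdh5* or *Myod1*, and were defined by markers the selection did not use. Of the 39 genes called higher, 33 in the forelimb and 37 in the hindlimb were also at least 1 log2 unit above the tendon set, with median differences of 1.35 and 1.53. Against the dermal set, 36 of 39 passed in each limb (medians 1.28 and 1.48), and against the joint set 33 and 37 (medians 2.05 and 1.70). *Ngfr*, for example, was at 25.3 and 21.1 CPM in the tendon set, 17.7 and 17.3 in the dermal set and 3.73 and 4.38 in the joint set. The genes called lower separated less from tendon cells: 28 of 78 in the forelimb and 26 in the hindlimb were at least 1 log2 unit below that set, against 50 and 53 for the dermal set and 44 and 43 for the joint set. The 78 include *Ttn*, *Myog*, *Actc1* and *Flt1*, and these sets, unlike the other connective tissue cells, left out cells with *Cdh5* or *Myod1*. Because genes were first called against other connective tissue cells, which overlap with these sets, the counts describe overlap and were not tested. The share of all genes compared that passed the same limit against each set was not taken.

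Of the fixed markers of neighbouring tissues, 2 of 5 dermal, 3 of 6 chondrocyte and none of 6 tendon markers were called lower, beside 0.819% of all genes compared, a share at which 0 of 6 says nothing about tendon. *Erg* was the 1 joint marker of 3 that passed the filter on low levels. All 5 dermal markers lay below the other cells in both limbs. *Twist2*, a dermal factor, was at 40.3 CPM in the selected forelimb cells against 156 CPM in the other cells, and 37.5 against 138 CPM in the hindlimb. *Lef1*, a nuclear partner of Wnt signalling, was at 7.30 against 41.7 CPM (forelimb) and 10.1 against 43.4 CPM (hindlimb). The dermal set had 289 and 276 CPM of *Twist2*. All 6 chondrocyte markers lay below, and *Matn4*, *Col9a1* and *Mia*, which mark cartilage matrix and its cells, were called. *Erg*, a factor of joint cells, was at 18.7 against 62.97 CPM (forelimb) and 25.8 against 86.5 CPM (hindlimb). *Runx2*, a factor of bone-forming cells, was at 14.3 against 48.6 CPM (forelimb) and 24.8 against 57.3 CPM (hindlimb), and at matched depth quartiles its mean difference was -0.99, just under the limit. *Cytl1*, a secreted protein of cartilage, had one of the most negative differences, at 4.59 against 30.3 CPM (forelimb) and 4.78 against 45.9 CPM (hindlimb), while the joint set had 119 and 122 CPM. No tendon marker was called, and *Scx*, which specifies tendon, was at 20.02 against 25.8 CPM (forelimb) and 15.99 against 27.3 CPM (hindlimb). *Thbs4*, a tendon matrix protein, was the exception among the 6, at 117 against 44.9 CPM (forelimb) and 66.1 against 37.1 CPM (hindlimb).

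Genes of muscle and vessels had lower values in the selected cells, but the rule took cells with *Cdh1*, *Cdh5* or *Myod1* out of the selected cells and not out of the comparison, so these calls are no result about the selected cells. *Ttn*, a giant muscle protein, was at 8.36 against 66.4 CPM (forelimb) and 10.7 against 53.2 CPM (hindlimb), and *Myog* and *Actc1* of muscle were also called lower. *Flt1* of endothelium, *Acta2* of mural cells and *Lyz2* of myeloid cells were called lower too. With comparison cells that also lacked *Cdh1*, *Cdh5* and *Myod1*, the mean log2 differences were -0.40 for *Ttn*, -0.07 for *Myog*, 0.085 for *Actc1*, -0.90 for *Flt1* and -0.86 for *Acta2*, so none of these 5 stayed past the limit. Against other connective tissue cells with few markers of other cell types, chosen after the data were seen, the mean differences became 0.10 for *Ttn*, 0.39 for *Myog*, 0.66 for *Actc1* and 0.67 for *Lyz2*. That setting took cells with such markers out of the comparison and not out of the selected cells. *Lyz2* was not among the 5 genes that fell under the limit with comparison cells lacking *Cdh1*, *Cdh5* and *Myod1*. Red blood cell genes were at 688 against 1805 CPM (forelimb) and 1031 against 2086 CPM (hindlimb) for *Hba-a1*. With barcodes limited to at least 0.8 log10 genes per log10 UMI, *Hba-a1* differed by -0.54 and *Hba-a2* by -0.60, so neither stayed past the limit. The 5 red blood markers summed to 4750.2 and 6982 CPM in selected cells against 12282 and 13306 CPM in the others. The embryonic globin *Hbb-y* was at 34.9 against 128 CPM (forelimb) and 30.7 against 184 CPM (hindlimb). The part of free RNA in these levels was not tested. The mural markers summed to 176 and 156 CPM against 273 and 229, and the 8 perineurial markers to 233 and 217 against 260.4 and 283 CPM. Only 4 perineurial markers passed the filter on low levels. Of these, 2 lay above and 2 below the other cells in both limbs, with a median log2 difference of 0.15. None was called, beside 0.41% of all genes compared called higher and 0.819% lower, and so short a list cannot be set apart from those shares.

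Patterning genes of the limb were mostly lower or similar. Of 20 homeobox genes compared, 14 lay below the other cells in both limbs and 3 were called lower, beside 0.819% of all genes compared. *Msx1*, a factor of distal and undifferentiated mesenchyme, was at 7.89 CPM in the selected forelimb cells against 36.3 CPM in the other cells, and 6.11 against 34.4 CPM in the hindlimb. *Irx3* and *Irx5* were called lower, and *Irx1*, which was not in the list, was among the 10 most negative at 5.89 against 38.9 CPM (forelimb) and 6.997 against 32.6 CPM (hindlimb). The list's median was -0.43. Of 13 muscle connective tissue and T-box factors none was called, which so short a list cannot set apart from that share. In both limbs 9 lay above and 3 below, with a median of 0.17. *Meox2*, *Tcf7l2* and *Osr1* are among those above. *Meox2*, a homeobox factor of limb muscle and its connective tissue, was at 191 against 90.3 CPM (forelimb) and 145 against 84.9 CPM (hindlimb). *Tcf7l2*, a marker of muscle connective tissue, was at 423 against 241 CPM (forelimb) and 415 against 270.2 CPM (hindlimb). *Osr1*, a factor of the same tissue, was at 54.1 against 47.2 CPM (forelimb) and 58.2 against 45.5 CPM (hindlimb). *Hic1*, a zinc finger repressor of mesenchymal progenitors that was not in the list, was called higher. It was at 85.3 against 38.7 CPM in the forelimb and 91.8 against 39.2 CPM in the hindlimb.

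Partners of the selecting genes were few among the genes compared. None of 5 other natriuretic peptide pathway genes was called, with a median of -0.01, and beside the 0.41% of all genes called higher a count of 0 among so few says nothing about the list. *Npr2*, the receptor of C-type natriuretic peptide, was at 16.96 against 15.97 CPM (forelimb) and 16.1 against 15.9 CPM (hindlimb), and *Npr3*, the clearance receptor, at 10.8 against 15.3 CPM (forelimb) and 19.9 against 21.8 CPM (hindlimb). The kinase *Prkg1* was at 166 against 291 CPM (forelimb) and 235 against 363 CPM (hindlimb), and the genes for the other natriuretic peptides, *Nppa* and *Nppb*, had 0 or near 0 CPM. *Cxcr3*, the receptor for *Cxcl9*, had no UMI in the selected cells of either limb, which allows up to 3 UMIs per sum. *Cxcl10*, a related chemokine, was at 15.3 against 8.23 CPM (forelimb) and 24.7 against 11.6 CPM (hindlimb), and none of 7 chemokine genes was called, a count as small beside that share. *Irf1*, an interferon-induced transcription factor, was at 92.2 against 71.2 CPM (forelimb) and 77.5 against 68.3 CPM (hindlimb). Of the 5 interferon response genes compared, *Bst2* alone was called. The editing enzymes *Adar* and *Adarb1* were at 9.19 and 11.4 CPM in selected forelimb cells and 12.1 and 16.99 CPM in selected hindlimb cells, and neither was called.

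Among relatives of *Ebf2*, *Ebf1* was at 1025 against 863 CPM (forelimb) and 1151 against 959.7 CPM (hindlimb) and *Ebf3* at 236 against 163 CPM (forelimb) and 273 against 202 CPM (hindlimb), both above the other cells in both limbs and under the limit. Genes of fat cells were mixed. *Fabp4*, a lipid carrier of fat and endothelial cells, was called lower at 2.83 against 25.4 CPM (forelimb) and 2.33 against 14.8 CPM (hindlimb), but its mean log2 difference was -0.17 with comparison cells lacking *Cdh1*, *Cdh5* and *Myod1* and -0.78 at matched depth quartiles. *Pparg*, the fat cell regulator, stood at 1.41 and 1.44 CPM. *Lpl*, lipoprotein lipase, was at 35.5 against 21.4 CPM (forelimb) and 41.1 against 20.4 CPM (hindlimb). Of the basic helix-loop-helix and Id factors, 12 were compared and *Twist1* and *Twist2* were called lower, beside 0.819% of all genes compared, while *Id1* was at 492 against 421 CPM (forelimb) and 445 against 423 CPM (hindlimb).

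Matrix genes showed a mixed picture, and their counts stand beside 0.41% of all genes compared called higher and 0.819% called lower. Of 23 collagens compared, none was called higher and *Col11a1* and *Col15a1* were called lower, with *Col11a1* at 202 against 412 CPM (forelimb) and 195 against 540.0 CPM (hindlimb). *Col15a1* differed by -0.84 with comparison cells lacking *Cdh1*, *Cdh5* and *Myod1* and by -0.95 at matched depth quartiles, under the limit in both. The 3 collagen VI genes lay above the other cells in both limbs, with *Col6a3* at 889 against 496 CPM (forelimb) and 888 against 442 CPM (hindlimb), and *Col1a1* lay below at 2642 against 3630.4 CPM (forelimb) and 2359.5 against 3101 CPM (hindlimb). *Lama2*, a laminin chain of muscle basement membrane, was at 272 against 155 CPM (forelimb) and 208 against 117 CPM (hindlimb), and *Nid2*, a laminin-binding protein, at 109 against 60.03 CPM (forelimb) and 87.4 against 48.2 CPM (hindlimb). Of 15 basement membrane and integrin genes, 8 lay above in both limbs, their median was 0.31, and *Itga6* was called lower, though at -0.94 it was under the limit with comparison cells lacking *Cdh1*, *Cdh5* and *Myod1*. Of 22 proteoglycan and glycoprotein genes, *Igfbp3* was called higher and none lower. *Vcan* (versican), a large proteoglycan of loose mesenchyme, was at 737 against 459.7 CPM (forelimb) and 881 against 509 CPM (hindlimb), and *Lum*, a small one of fibrous tissue, at 354 against 571 CPM (forelimb) and 289 against 502 CPM (hindlimb). Elastic fibre genes lay below in 13 of 16, with none called and a median of -0.33.

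Of 21 Wnt pathway genes, 3 were called lower, beside 0.819% of all genes compared, and 17 lay below the other cells in both limbs. *Axin2*, a Wnt target and feedback inhibitor, was at 11.1 against 32.5 CPM (forelimb) and 11.4 against 37.1 CPM (hindlimb). *Wif1*, a secreted Wnt inhibitor, was at 12.6 against 43.5 CPM (forelimb) and 7.996 against 26.6 CPM (hindlimb), and the list's median was -0.60. At these background shares, no gene was called in the BMP (17 compared, median 0.00), hedgehog (10, -0.23), FGF (13, 0.03), TGF-beta (12, -0.30), Notch (5, -0.24) or angiogenic ligand (11, -0.61) lists. Within the FGF list, the 3 Sprouty feedback inhibitors lay above the other cells in both limbs, with *Spry1* at 93.99 against 51.8 CPM (forelimb) and 94.1 against 45.1 CPM (hindlimb) and *Spry4* at 49.3 against 22.9 CPM (forelimb) and 61.6 against 23.8 CPM (hindlimb). *Ptch1*, the hedgehog receptor and target, was at 26.03 against 63.5 CPM (forelimb) and 45.1 against 91.1 CPM (hindlimb). All 18 cell division genes lay above in both limbs, none by the limit, and summed to 1907 and 1711 CPM against 1509 and 1459 CPM. Selected cells were deeper, at medians of 8733 and 9330 UMIs against 5439 and 6036. The part of depth in these sums was not tested. Stress genes (11 compared) had a median of -0.14 and none was called.

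The threshold of 3 markers did not mark a break in genes the selection did not use. In the forelimb, *Aldh1a3* was at 5.61 CPM in connective tissue cells with no marker, 15.3 with 1, 36.3 with 2 (just outside) and 66.4 with 3 (just inside). In the hindlimb the same steps were 4.30, 10.3, 29.6 and 63.4 CPM, and cells with 4 markers had 82.3 CPM, against 49.96 CPM in the forelimb, where the level was lower than with 3. Levels climbed with each marker up to the threshold in both limbs. *Ngfr* was ordered the same way, from 46.04 to 89.9 CPM across the threshold in the forelimb and from 28.7 to 64.7 CPM in the hindlimb. *Twist2* ran the other way, from 236 CPM with no marker to 54.7 with 2 and 46.2 with 3 in the forelimb. Median depth also climbed, from 4629 UMIs with no marker to 7497 with 2 and 8317.5 with 3 in the forelimb, and its part in these steps was not tested.

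**Figure D4:**
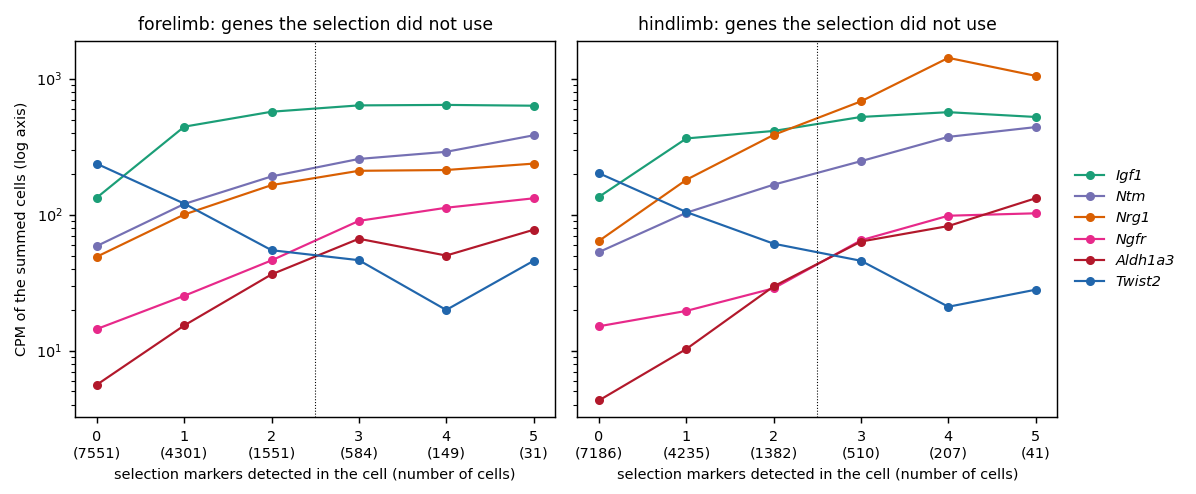
CPM on a log axis (vertical) of 6 genes the selection did not use, in connective tissue cells with 0 to 5 of the 6 markers (horizontal, number of cells in brackets), in the forelimb (left) and hindlimb (right). The dotted line is the threshold of 3 markers; *Aldh1a3* stood at 5.61 and 4.30 CPM with no marker and at 66.4 and 63.4 CPM with 3, and *Twist2* at 236 and 201 with no marker and 46.2 and 45.7 CPM with 3.

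Connective tissue cells of each limb were also clustered without the 9 genes of the rule, to see where the selected cells lay. In the forelimb, 358 selected cells (46.8%, exact interval 43.2 to 50.4) lay in 1 of 26 clusters, and 194 (25.4%) in a second. In the hindlimb, 359 (47.1%, 43.5 to 50.7) lay in 1 of 30 clusters and 157 (20.6%) in a second. The leading cluster of the forelimb (1392 cells) had *Aldh1a3*, *Rit2*, *Adarb2*, *Ngfr* and *Nppc* at the head of its genes, and that of the hindlimb (976 cells) had *Rbp4*, *Aldh1a3*, *Cxcl9*, *Nrg1* and *Nppc*. *Adarb2*, *Nppc* and *Cxcl9* are rule genes, so their places were set in part by the selected cells. *Nppc* was at 94.6 CPM in the forelimb cluster and 58.2 CPM in its unselected cells. *Cxcl9* was at 64.9 CPM in the hindlimb cluster and 20.1 CPM in its unselected cells. Both second clusters were led by cell division genes such as *Hmmr*, *Cenpf* and *Mxd3*. Between the selected cells of the second and the leading cluster, the cell division list summed to 3958 against 896 CPM in the forelimb and 4017 against 853 CPM in the hindlimb, while the genes called higher differed by a median of -0.16 and -0.29. Selected cells made up 25.7% of the leading forelimb cluster and 36.8% of the leading hindlimb cluster, so most of its cells did not meet the rule. The 1034 cells of the forelimb cluster that were not selected had 66.3 CPM of *Aldh1a3* and 76.6 CPM of *Ngfr*, against 7.98 and 17.4 CPM in unselected cells outside the leading and second clusters. The 617 of the hindlimb cluster had 70.3 and 72.6 CPM, against 5.99 and 15.3 CPM. *Aldh1a3* and *Ngfr* were open to the clustering and are among the leading genes of both clusters. Their levels in the unselected cells of these clusters are therefore a description.

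The selected cells outside these clusters were less distinct. There were 213 forelimb cells (27.8%) and 247 hindlimb cells (32.4%) of this kind, with medians of 11767 and 11477 UMIs against 8141.5 and 8865.5 UMIs inside. Over the 39 genes called higher, the median difference from other connective tissue cells was 1.40 and 1.58 inside the clusters and 0.60 and 0.68 outside. *Aldh1a3* was at 83.7 CPM inside and 30.9 outside in the forelimb, and 109 and 26.1 CPM in the hindlimb. *Cntfr* was at 113 and 42.2 CPM in the forelimb and 94.04 and 31.5 CPM in the hindlimb. Taken alone, the outside cells gave 1 gene called higher and 15 called lower. The clusters were made from these same genes, so the split is a description, and it was chosen after the data were seen.

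**Figure D5:**
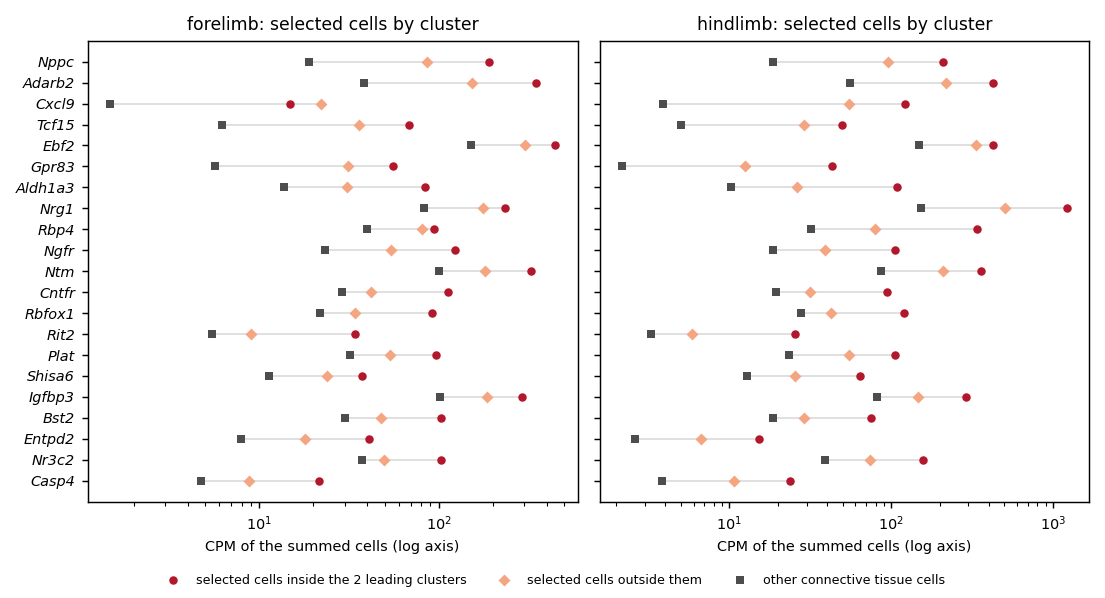
CPM on a log axis (horizontal) of the 6 genes of the rule and the 15 genes with the largest mean differences, in selected cells inside the 2 clusters that held most of them, selected cells outside, and other connective tissue cells. For *Cntfr* the forelimb values are 113, 42.2 and 29.1 CPM, so the outside cells lie nearer to the unselected cells.

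Across the 5 rule genes other than *Ebf2*, the 15 genes with the largest mean differences differed between selected cells with and without the marker by medians of -0.09 to 0.35. A selected cell without a marker had to carry at least 3 of the others, and the 15 genes were picked in these same cells. Small differences are therefore a description and do not show that the selected cells are alike. Between selected cells with and without *Nppc*, they differed by a median of 0.06 log2 units in each limb, and with and without *Tcf15* by 0.14 in the forelimb and 0.24 in the hindlimb. For *Cxcl9* the medians were 0.17 and 0.30. *Rbp4* in the hindlimb was at 327 CPM in selected cells with *Cxcl9* and 169 CPM without, but at 94.9 and 88.6 CPM in the forelimb. *Rit2* in the hindlimb was at 22.2 CPM in selected cells with *Adarb2* and 3.42 CPM without, the widest gap among these genes.

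Between the limbs, the selected cells carried the known identity genes. *Tbx5*, a forelimb factor, was at 54.9 CPM in selected forelimb and 1.89 CPM in selected hindlimb cells. *Pitx1*, a hindlimb factor, was at 0.71 and 105 CPM, and *Tbx4*, another, at 4.12 and 32.4 CPM. Other connective tissue cells had the same directions for all 3 genes. Of 9522 genes compared, 34 were higher by log2 1 or more in hindlimb and 33 in forelimb selected cells. In other connective tissue cells the counts were 7 and 5, and their sums held over 10 times as many UMIs. *Nrg1* was higher in selected hindlimb cells by 2.10 log2 units and in other hindlimb cells by 0.83. *Rbp4* was higher by 1.32 in selected cells and lower by 0.29 in the others. *Cpa3*, a mast cell protease, went the other way, at 82.8 and 29.0 CPM in selected forelimb and hindlimb cells and 162 and 117 CPM in the others. *Lyz2* of myeloid cells did too, at 14.6 and 2.78 CPM in selected cells, as did *S100a8*, at 13.8 and 0.44 CPM. Clusters led by *Lyz2* held 9 selected forelimb and 3 selected hindlimb cells, and those led by *Cpa3* held 6 and 3. The part of such cells in the counts of genes was not tested. With 1 library per limb, limb and library cannot be told apart.

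The rule was applied to the penis libraries as well. It found 3 of 6806, 1 of 7107 and 2 of 5720 kept cells, or 0.0441%, 0.0141% and 0.0350%, with upper exact bounds of 0.129%, 0.0784% and 0.126%. *Nppc* was detected in 12.03%, 11.98% and 12.1% of penis connective tissue cells, against 8.06% and 8.13% of other limb connective tissue cells, which leave out the selected cells. Depth differed too, with medians of 10410.5, 9935 and 9199 UMIs in the penis cells against 5439 and 6036, and as levels *Nppc* stood at 20.7, 21.6 and 23.7 CPM against 18.99 and 18.7 CPM. The limb values leave out the selected cells, which had more *Nppc*, while the penis values leave out no connective tissue cell. Penis and limb are therefore not ranked for *Nppc* by these values. *Ebf2* was detected in 3.93%, 3.62% and 4.31% of them, and *Tcf15* in 0.381%, 0.464% and 0.429%. The combination that chose the limb cells was therefore rare in these penis libraries, which differ from the limb libraries in tissue and in age.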

How the data were processed

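Dissociated P6 penis (3 libraries) and embryonic forelimb and hindlimb (1 each) were processed by the authors with a 10X Genomics single cell 3' kit and Cell Ranger 7.0.0, with the mm10 build, by the submitters' processing notes. Each deposited matrix gives, for every barcode, whole UMI counts of genes with no normalization. The selected cells, the gene lists and the comparisons were chosen with earlier results of these data known.

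Limb cells were kept at 100 to 9000 genes and at most 10% mitochondrial UMIs (penis 500 to 6000 and 5%). Kept cells held 49801 limb barcodes. UMI counts were summed per library and scaled by the sum to CPM, and compared as log2 with 5 CPM added, for genes with a mean of at least 10 CPM. Intervals are exact Poisson (levels) or exact binomial (shares) at 95%. A count test planned for penis cells needed 20 selected cells per library and was not run, since the libraries had 3, 1 and 2. Named genes are the 15 most positive and 10 most negative called genes, the 9 genes of the rule, and called or defining members of the 38 lists. *Hic1*, *Serpine2*, *Gria1*, *Nrgn*, *Ctnna2* and the genes named for limb or cluster differences were named after their values were seen. Tendon and dermal sets needed a UMI of 3 or more of their markers, and the joint set 2 or more. Cells were clustered with scanpy 1.11.5 (3000 variable genes, 50 components, 15 neighbours, Leiden resolution 1) after the 9 genes were removed. Doublets were called with scrublet and kept, and left out as an alternative. Comparison of depth used cells thinned to 2000 UMIs. Calculations ran in Python 3.11.15 with numpy 2.4.6, scipy 1.17.1 and pandas 2.3.3, and were tested on simulated data.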

Additional observations from a re-analysis of the deposited data

How the results depend on the processing

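The 39 genes called higher and 78 called lower were recomputed under 16 other settings. Weighting each cell equally gave 65 and 181. A pseudocount of 1 CPM gave 118 lower, and requiring 4 or more markers gave 182 lower. Other cells within the depth quartiles of the selected cells gave 22 higher. Using 1 limb alone gave 50 to 69 higher and 135 to 147 lower, a call then needing 1 limb instead of 2 and the filter on low levels being applied to that limb. Selected cells outside the 2 leading clusters, chosen after seeing the data, gave 1 and 15. The share of kept cells selected was 9.75% and 9.93% (forelimb and hindlimb) with 2 or more markers, 0.700% and 1.06% with 4 or more, 3.47% and 3.72% with at least 0.8 log10 genes per log10 UMI, and 0.484% and 0.547% after thinning to 2000 UMIs. The leading cluster held 55.2% and 57.3% at a resolution of 0.5, and 44.4% and 42.7% at a resolution of 2. Among 50 named genes, 551 of 800 values moved by less than their spread over the limbs, 243 moved further and 6 changed sign. *Actc1* became 0.085 with comparison cells lacking *Cdh1*, *Cdh5* and *Myod1*, and 0.26 in clusters low in cell division genes. With comparison cells having few markers of other cell types, *Actc1*, *Ttn*, *Myog* and *Lyz2* became 0.66, 0.10, 0.39 and 0.67. The cause of these moves was not tested, beyond the change each setting makes in the cells compared. No paired analysis was possible because no test was made that a replicate block could enter. Selected and other cells were paired within each library, and their differences were left untested since the rule chose the cells. The penis test and its alternatives (another tool, normalization or filter, no replicate block, each library left out, depth quartiles) were not run, for want of cells. Depth limits rare genes: the selected sums held 8490580 and 9004280 UMIs, against 96012538 and 99969423 in the other cells.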

Other observations

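Co-detection of the selecting genes was taken at equal depth over connective tissue cells that include the selected cells, which were chosen for it, so these shares lend no support to the grouping. After thinning to 2000 UMIs, 4.39% of forelimb cells with an *Nppc* UMI had a *Tcf15* UMI, against 1.65% of those without, and 2.51% against 1.05% in the hindlimb. For *Cxcl9* the shares in hindlimb cells with and without *Nppc* were 6.87% and 1.11%, and in forelimb cells 0.98% and 0.39%, the last pair resting on 6 cells with both. *Ebf2* was found in 39.9% of thinned forelimb cells with *Adarb2* and 19.5% of those without.

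Imprinted genes were named here after their values were seen. *Magel2* was at 37.9 against 14.9 CPM in selected and other forelimb cells and 38.0 against 14.8 CPM in the hindlimb, and *Zim1* at 100.1 against 46.6 and 112 against 42.4 CPM. Both were among the 39 genes called higher, while *H19* was at 1229.6 against 1009 CPM (forelimb) and 1248 against 1023 CPM (hindlimb) and *Grb10* at 668 against 567 CPM (forelimb) and 729 against 595 CPM (hindlimb), under the limit in both limbs.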
